A study of Homo sapiens with 6 samples.

Results

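The genes of the AP-1 transcription factor and its fellow immediate early genes were followed across 6 RNA sequencing libraries of SW480 cells. The members were FOS, FOSB, FOSL1, FOSL2, JUN, JUNB, JUND, EGR1, IER2 and IER3. They were selected by symbol, which gave 10 of the 19225 symbols listed, and all 10 were among the 12884 genes tested. SW480 is a long-established line from a human colon tumour, and the labels give it as mutant for p53. One group held 3 control libraries and the other held 3 libraries from cells given an MDM4 plasmid by transient transfection, so the added MDM4 was not a stable clone. The labels give plasmid transfection for both groups without naming the control plasmid, and their titles call the second group exercised, which was taken to be the MDM4 group since no other group stands beside control. The libraries of each group carry numbers 1 to 3, and nothing states that these were separate cultures, so the p-values measure only the spread between these libraries. The question was which transcripts differ when MDM4, an inhibitor of p53, is raised in colon cancer cells.

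AP-1 is a pair of proteins joined through leucine zippers, either a FOS family protein with a JUN family protein or 2 JUN family proteins, and it binds a short palindromic DNA site. Immediate early genes are switched on within minutes of growth factor, serum or stress signals without new protein synthesis, mostly through ERK kinases acting on factors bound beside SRF, and most of their mRNAs decay quickly. In colon cancer cells the RAS to ERK pathway is often active, and FOSL1 (FRA-1) is known as the member that accumulates when ERK signalling is sustained.

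The upstream sequences of FOS, FOSB and EGR1 are shown because FOS and EGR1 had nearly the same profile over the libraries and FOSB is the closest relative of FOS. They come from RefSeq on GRCh38.p14 and cover the 250 bases before each gene start, written 5′ to 3′ on the strand of the gene. GENCODE release 29 lets FOS begin within its window. FOS is chr14:75278578-75278827, FOSB chr19:45467746-45467995 and EGR1 chr5:138465229-138465478, all on the plus strand. Capitals mark a TATAAA box in FOS and FOSB and 2 CArG boxes, the sites that SRF binds, in EGR1. Only these 250 bases were searched, so a site farther upstream of any member, FOS included, would be missed.
FOS: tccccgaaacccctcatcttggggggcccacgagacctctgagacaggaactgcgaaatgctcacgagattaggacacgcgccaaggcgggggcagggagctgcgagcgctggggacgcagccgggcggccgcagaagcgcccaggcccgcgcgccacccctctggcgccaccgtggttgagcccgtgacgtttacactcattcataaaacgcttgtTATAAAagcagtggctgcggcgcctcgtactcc
FOSB: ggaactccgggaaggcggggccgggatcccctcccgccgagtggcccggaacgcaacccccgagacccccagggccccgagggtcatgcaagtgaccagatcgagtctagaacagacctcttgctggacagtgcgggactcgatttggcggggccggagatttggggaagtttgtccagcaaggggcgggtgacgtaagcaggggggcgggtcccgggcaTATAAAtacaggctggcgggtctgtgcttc
EGR1: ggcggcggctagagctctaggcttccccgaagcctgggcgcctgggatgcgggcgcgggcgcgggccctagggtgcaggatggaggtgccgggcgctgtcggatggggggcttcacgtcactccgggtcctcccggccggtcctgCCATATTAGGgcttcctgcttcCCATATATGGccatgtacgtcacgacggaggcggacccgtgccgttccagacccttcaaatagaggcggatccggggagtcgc
The TATAAA boxes began 33 bases before the start of FOS and 30 before that of FOSB, and JUNB had one 31 bases before its start. These 3 stood among the 8 members whose windows could be matched, while 11.1% of the 27305 promoters of the table held TATAAA on either strand. The CArG boxes of EGR1 began 105 and 83 bases before its start, and 1.14% of promoters held such a box. The AP-1 site TGACTCA was in 0 of the 8 windows and in 4.16% of promoters. The cAMP response element TGACGTCA was in JUND, 200 bases before its start, and in 1.77% of promoters. The ETS site CCGGAAGT (3.64% of promoters) and the NF-κB site (5.05%) were in 0 of the 8. Both strands were searched and none of the matches shown overlapped another. The windows of the members were 62.0% to 74.8% GC, against a median of 58.0% over all promoters. For FOSL1 and IER3 no window is shown.

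The authors deposited FPKM values, in which the reads of each gene are divided by gene length and library total. Because the values move in whole steps, the reads were recovered, and library totals were 33044788 to 44729596. Members had between 141 and 24548 reads per library, the fewest on FOSB. For FOSB, and for FOSL2 in control, counting error was not small beside the spread within a group. Epithelial markers fitted the label, with EPCAM at 156 to 167 FPKM, KRT8, KRT18 and KRT19 higher still, and VIL1 between 1.88 and 4.09. Summed levels of 4 fibroblast, 4 leukocyte and 3 endothelial markers were at most 3.83, 1.32 and 0.648 FPKM. For MDM4 itself the control libraries gave 6.35, 7.09 and 5.13 FPKM and the MDM4 libraries 188, 185 and 56.3, so MDM4 replicate 3 had much less of the transfected gene than the other MDM4 libraries. Replicate 3 of both groups also stood apart from the other 4 libraries over many genes. Each member is therefore given both between the groups and between replicate 3 and replicates 1 and 2.

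Expression of the members spanned a wide range. IER3, which encodes a survival and ERK-modulating protein, was the highest at 436 ± 34.9 FPKM (SD, n = 6 libraries), followed by FOSL1 at 121 ± 41.4. IER2, a nuclear immediate early protein, came next at 55.5 ± 4.73. JUNB (41.4 ± 3.51) and FOSL2 (39.1 ± 2.65) followed, and their ranges overlapped, with JUNB the higher in 4 of 6 libraries. JUND, FOS, EGR1 and JUN had means of 25.8, 23.4, 22.6 and 22.4 FPKM, and each overlapped its neighbour in that order. FOSB was lowest at 1.38 ± 0.278 FPKM. FOSL1 was the most abundant FOS family transcript in each library, and the JUN family was spread over all 3 members.

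**Figure D1:**
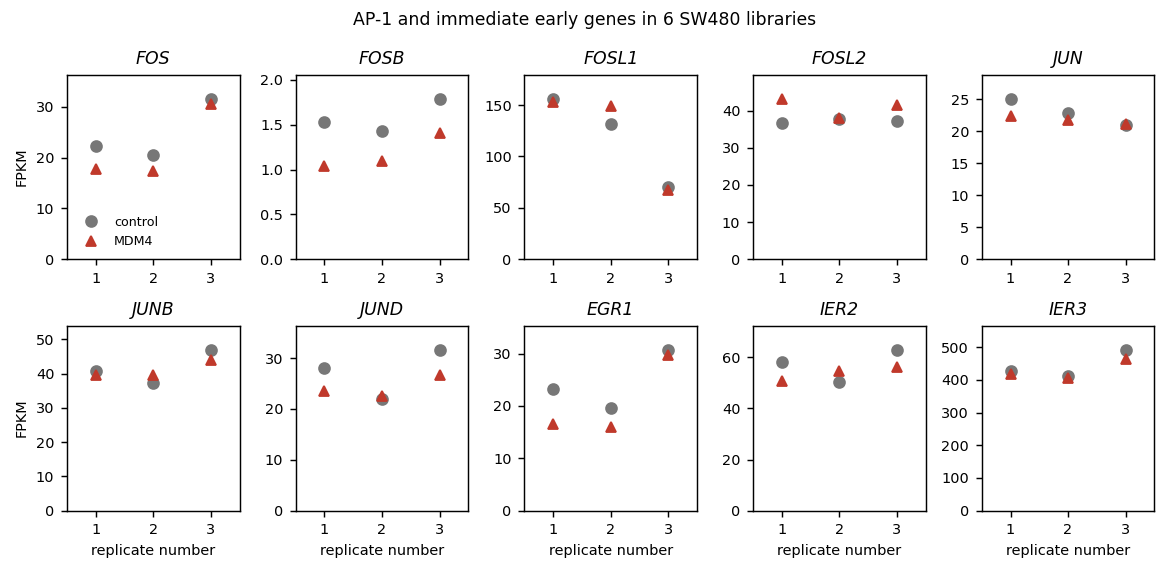
FPKM of the 10 members in each library, with replicate number on the horizontal axis, grey circles for control and red triangles for MDM4, and each vertical axis starting at 0. FOS and EGR1 are highest and FOSL1 is lowest in replicate 3 of both groups, whereas FOSB is lower and FOSL2 higher in every MDM4 library than in every control library.

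FOS, the founding FOS protein and a strong activator, measured 22.2, 20.6 and 31.6 FPKM in control replicates 1, 2 and 3 and 17.7, 17.4 and 30.6 in MDM4 replicates 1 to 3. Both replicate 3 libraries were above the other 4, while the groups overlapped. In GENCODE release 29 on GRCh38, FOS lies on the plus strand at chr14:75278774-75282230 with 4 exons, and the length behind the FPKM, 2158 bases, is that of an annotated transcript. Replicate 3 was higher than replicates 1 and 2 by 0.68 ± 0.073 on the log2(FPKM + 0.1) scale (SE, limma adjusted p = 7.39e-05), a fold of 1.60. On this scale the change of low genes is understated. Within the groups, replicate 3 was 1.47 times the mean of replicates 1 and 2 in control and 1.74 times in MDM4.

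EGR1, a zinc finger factor outside AP-1 and a classic SRF target, was at 23.2, 19.5 and 30.7 FPKM in the control libraries and at 16.6, 16.0 and 29.7 in the MDM4 libraries. The order was that of FOS, with both replicate 3 libraries highest. The gene lies at chr5:138465490-138469315 on the plus strand with 2 exons. Replicate 3 was higher by 0.69 ± 0.092 on the log2 scale (limma adjusted p = 0.000242), a fold of 1.62. EGR1 and FOS stayed close to equal in each library, with a ratio of EGR1 to FOS in FPKM between 0.920 and 1.04.

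FOSL1 went the other way. Its control replicates 1, 2 and 3 gave 156, 132 and 70.0 FPKM and its MDM4 replicates 153, 149 and 67.6. Both replicate 3 libraries were below all others, and the groups overlapped almost fully. FOSL1 lies on the minus strand at chr11:65892049-65900573. Replicate 3 was lower by a log2 difference of -1.09 ± 0.068 (limma adjusted p = 4.49e-06), that is, at 0.468 of the level in replicates 1 and 2. It was the one member with an absolute log2 difference over 1. FOSL1 was at 0.486 of the mean of replicates 1 and 2 within control and at 0.448 within MDM4.

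The ratio of FOSL1 to FOS within a library does not depend on how libraries are scaled to each other. It was 7.02 and 6.39 in control replicates 1 and 2 and 2.22 in control replicate 3. In the MDM4 libraries it was 8.65, 8.53 and 2.21. FOSL1 made up 68.7% to 72.4% of the summed FPKM of the FOS family in replicates 1 and 2, and 49.8% and 47.9% in replicate 3 of control and MDM4. FOS made up 8.23% to 10.8% in replicates 1 and 2, and 22.5% and 21.7% in replicate 3. FOSL2 (FRA-2) took 16.9% to 20.1% in replicates 1 and 2 and 26.4% and 29.4% in replicate 3, while its own level was not called different. These shares are descriptions of 6 libraries and were not tested.

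**Figure D2:**
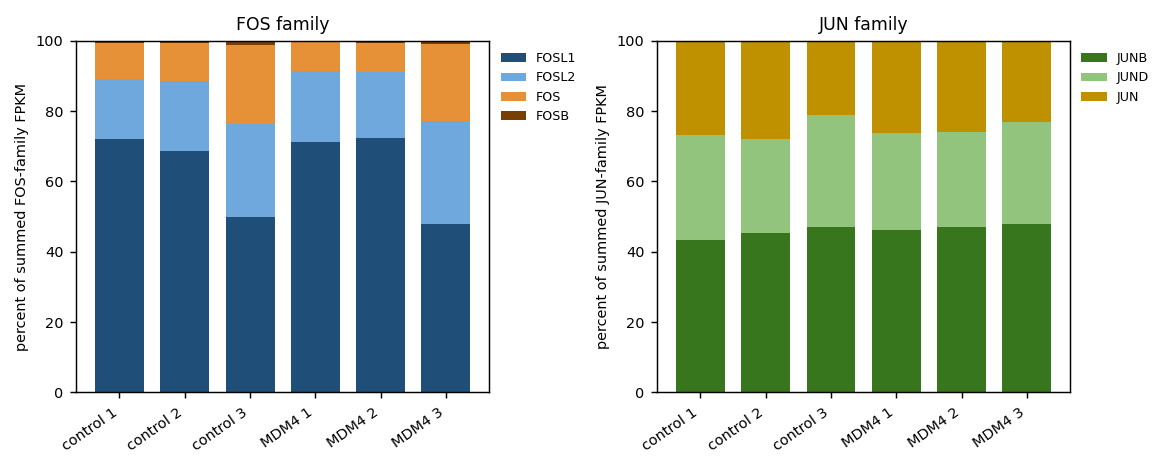
Share of each member in the summed FPKM of its family, in percent, for the FOS family (left) and the JUN family (right), with 1 bar per library. FOSL1 holds over 68% of the FOS family in the 4 libraries of replicates 1 and 2 and under 50% in both replicate 3 libraries, and the JUN family bars differ less.

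FOSL2 was at 36.6, 37.9 and 37.2 FPKM in control and at 43.2, 38.1 and 41.5 in MDM4. Its replicate 3 libraries lay within the range of the others, with a log2 difference of 0.01 ± 0.064 (limma adjusted p = 0.873). FOSB was at 1.53, 1.43 and 1.79 FPKM in control and at 1.04, 1.10 and 1.41 in MDM4. In each group replicate 3 was the highest library, but control replicates 1 and 2 were above MDM4 replicate 3. The difference of replicate 3 was 0.31 ± 0.152 on the log2 scale and did not pass the test (limma adjusted p = 0.116), but did with eBayes without trend (0.0156). After quantile normalization it was -0.01.

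Among the JUN proteins, JUN, the main transactivating partner of FOS, was at 25.1, 22.9 and 21.0 FPKM in control and at 22.5, 21.8 and 21.1 in MDM4. Its replicate 3 libraries were the lowest by a small margin (log2 difference -0.13 ± 0.067, limma adjusted p = 0.145). FOS to JUN was thus between 0.786 and 0.901 in replicates 1 and 2 and 1.45 or more in both replicate 3 libraries. JUNB, which often restrains JUN activity, was at 40.8, 37.2 and 46.9 FPKM in control and at 39.6, 39.6 and 44.0 in MDM4, highest in replicate 3 of each group. Its difference was 0.21 ± 0.061 (limma adjusted p = 0.0174). JUND, the member expressed in most resting cells, was at 28.2, 21.9 and 31.7 FPKM in control and at 23.5, 22.6 and 26.6 in MDM4. Control replicate 1 exceeded MDM4 replicate 3, and the difference of replicate 3 was 0.28 ± 0.092 (limma adjusted p = 0.0312). The JUN family sum was 82.0 to 99.6 FPKM, and JUNB took 43.4% to 48.0% of it in every library.

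IER2 was at 58.1, 50.4 and 63.0 FPKM in control and at 50.8, 54.8 and 56.1 in MDM4. Control replicate 1 was above MDM4 replicate 3, and the difference of replicate 3, 0.15 ± 0.070, did not pass the test (limma adjusted p = 0.0945). IER3 was at 428, 410.4 and 492 FPKM in control and at 417, 405 and 465 in MDM4. Its replicate 3 libraries were above the other 4, with a difference of 0.21 ± 0.044 (limma adjusted p = 0.00367). JUNB, IER2 and IER3 overlap antisense genes in GENCODE (HOOK2, AC011446.2 and IER3-AS1), and since the strand of counting is not stated, reads of the partners cannot be told apart. The steps of JUNB resolve to a length of 908 bases, under its coding length of 1041, so its reads are known only up to a whole multiple. Reads of the other members are likewise the smallest that give a whole length.

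In replicate 3 against replicates 1 and 2, 5 of the 10 members rose (FOS, EGR1, JUND, JUNB and IER3), 1 fell (FOSL1) and 4 did not pass. Over all genes tested, 44.1% were called, 29.6% higher and 14.6% lower, so a call in this comparison did not by itself set the members apart. The libraries did not overlap for 6 members, 4 higher (FOS, JUNB, EGR1 and IER3) and 2 lower (FOSL1 and JUN), against 55.7% of all genes. The median log2 difference was 0.21 for the members and 0.092 for all genes. Scaling by the median ratio of the libraries took the median of all genes to -0.01 and the share of calls that were higher from 67.0% to 45.4%. FOS, EGR1 and FOSL1 were called under each of 16 alternatives. With median ratio scaling, JUNB (0.11, limma adjusted p = 0.181), JUND (0.17, adjusted p = 0.145) and IER3 (0.10, adjusted p = 0.0819) were no longer called, and JUN was called lower (-0.23, adjusted p = 0.0171). The same 3 calls were lost with voom on the recovered reads (voom adjusted p = 0.212, 0.109 and 0.0528). JUN was again called lower there (-0.22, voom adjusted p = 0.0179). The calls of JUNB, JUND and IER3 were also lost without control replicate 3 (limma adjusted p = 0.278, 0.296 and 0.0811), and those of JUNB and JUND without MDM4 replicate 3 (0.0751 and 0.0967). Without MDM4 replicate 2, JUND was lost as well (limma adjusted p = 0.0616), and without control replicate 1, IER2 was called (0.0335). JUNB was also lost with eBayes without trend (limma adjusted p = 0.0604), and JUND with that setting, without the group term and without a filter (0.0996, 0.0622 and 0.0635). Replicate 3 was singled out because it stood apart in these same libraries, so the calls describe them and not a condition. What set replicate 3 apart was not tested.

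**Figure D3:**
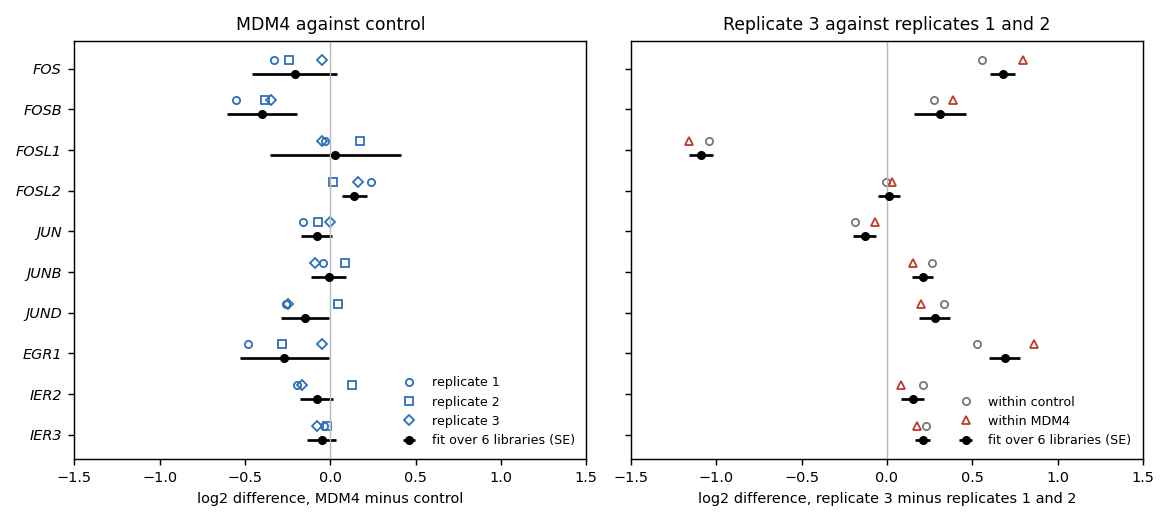
Log2 differences of the 10 members between MDM4 and control (left) and between replicate 3 and replicates 1 and 2 (right). Black points are limma fits on log2(FPKM + 0.1) with SE bars, and open symbols are log2 ratios of FPKM for each same-numbered pair (left) or within each group (right). FOS and EGR1 lie right of 0 and FOSL1 lies left of 0 for replicate 3 in both groups, while the fits for MDM4 against control lie within 0.40 of 0.

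Between MDM4 and control, 0 of the 10 members were called by limma or by voom, and 0 had an unadjusted p under 0.05 in the limma fit. Over all genes 0% were called, with 222 genes at an unadjusted p under 0.05, and MDM4 itself had an adjusted p of 0.161 (log2 difference 4.33 ± 0.435) in the 6 libraries and of 3.73e-11 over replicates 1 and 2 alone. The groups did not overlap for 2 members, against 6.85% of all genes. FOSB was lower in MDM4 by a log2 difference of -0.40 ± 0.203, and FOSL2 was higher by 0.14 ± 0.074 (limma adjusted p = 1.0 for both). Each had an exact two-sided permutation p of 0.1, the smallest that 3 against 3 libraries allow. EGR1 differed by -0.27 ± 0.260 and FOS by -0.21 ± 0.247, each with an SE near the size of the difference. This fit has no term for replicate, so its SE includes the shift of replicate 3. With the replicate block the SE was 0.083 for EGR1, 0.07 for FOS and 0.057 for FOSL1. JUND (-0.15 ± 0.142), JUN (-0.08 ± 0.091), IER2 (-0.08 ± 0.095), IER3 (-0.05 ± 0.085), FOSL1 (0.03 ± 0.382) and JUNB (-0.01 ± 0.101) lay closer to 0. The exact two-sided permutation p for these 8 members was 0.5 or more.

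Compared by number, FOS was at 0.794, 0.846 and 0.967 of its control level in MDM4 replicates 1, 2 and 3. EGR1 was at 0.715, 0.821 and 0.968, and FOSB at 0.682, 0.768 and 0.786. FOSL2 was at 1.18, 1.01 and 1.12 times control. FOS, FOSB, EGR1 and IER3 were lower in all 3 pairs, 4 of 10 members against 18.6% of all genes, and FOSL2 was the one member higher in all 3 pairs, against 16.6%. With the replicate block, EGR1, FOS and FOSB had unadjusted p of 0.00898, 0.0156 and 0.0234, but limma adjusted p of 0.308, 0.325 and 0.350, with 0.0155% of all genes called. Of the 12884 genes, 1624 had an unadjusted p under 0.05 in that fit. Over replicates 1 and 2 alone the log2 differences were -0.38 for EGR1, -0.29 for FOS and -0.43 for FOSB (limma adjusted p = 0.234, 0.363 and 0.596), where 0.536% of genes were called. Lower FOS and EGR1 in the MDM4 libraries was therefore a direction shared by same-numbered libraries and not a difference that passed the test. No pairing by number is stated.

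Whether the gap between MDM4 and control differed between replicate 3 and replicates 1 and 2 was tested as an interaction. Replicate 3 has 1 library per group, which the fit assumes to vary like replicates 1 and 2. The effect in replicate 3 minus that in replicates 1 and 2 was 0.33 ± 0.171 for EGR1 and 0.24 ± 0.148 for FOS on the log2 scale (limma adjusted p = 1.0 for both). In the limma fit 0 of the 10 members and 0.194% of all genes were called, and 0 members had an unadjusted p under 0.05, with voom also calling 0 members. Of interferon-stimulated genes, 13 of 23 were called in this interaction, among them ISG15 (1.24, limma adjusted p = 0.000566) and IFI27 (2.19, adjusted p = 0.00128). The 25 genes called in all became 0 without a filter on low values and 5 with eBayes without trend. Control replicates 1 and 2 held ISG15 at 232 and 239.7 FPKM and the other 4 libraries at 86.1 to 95.7.

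The wider immediate early program did not move in 1 direction in replicate 3. Of 25 other immediate early genes tested, 8 rose and 9 fell, with a median log2 difference of 0.17, and voom called 6 higher and 9 lower. For each list, the share over all genes tested was 29.6% called higher and 14.6% called lower by limma. Voom called 5590 of all 12884 genes, and 50.5% of those calls were higher. KLF2, a zinc finger factor, was highest in replicate 3, at 7.50 and 7.33 FPKM against 2.89 to 4.15 in the other libraries (log2 difference 1.06, limma adjusted p = 0.000224). MYC fell by 0.84 on the log2 scale, from between 195 and 213 to 117 and 113 FPKM (limma adjusted p = 4.83e-06). CYR61, a secreted matrix protein, fell by 0.91 (limma adjusted p = 4.65e-05) and DUSP2, a phosphatase of ERK, fell by 0.88 (adjusted p = 0.000246). NR4A1, an orphan nuclear receptor named here after its values were seen, rose by 0.78 (limma adjusted p = 4.97e-05). In MDM4 against control 0 of the 25 were called. ATF3, a stress-induced bZIP partner of JUN also named after its values were seen, was at 9.17, 9.49 and 7.51 FPKM in control and 5.64, 5.39 and 6.70 in MDM4, with no overlap between the groups (log2 difference -0.55 ± 0.142, limma adjusted p = 1.0).

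Of 14 other AP-1 and bZIP partners, 4 rose and 2 fell in replicate 3, with a median of 0.05, below that of all genes, and voom called 3 higher and 4 lower. JDP2, which represses AP-1 sites, rose by 0.90 (limma adjusted p = 0.000541), BATF, which lacks an activation domain, by 0.56 (adjusted p = 0.00369), ATF2 by 0.39 and ATF7 by 0.26 (adjusted p = 0.00898 and 0.0410). Of 20 upstream kinases and ternary complex factors, 4 rose and 2 fell, and voom called 3 higher and 3 lower. The ERK-activated kinases RPS6KA5 and RPS6KA1 were higher by 0.59 and 0.50 (limma adjusted p = 0.00114 and 0.000287).

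ERK feedback and ETS genes have mRNA levels that are commonly read as a record of ERK activity, which was not tested here. Of 12 such genes, 8 rose and 1 fell in replicate 3, against 29.6% and 14.6% of all genes. Their median was 0.31. ETV5 rose the most, from between 21.5 and 24.5 FPKM to 50.4 and 49.9 (log2 difference 1.14, limma adjusted p = 2.23e-06). DUSP5, a nuclear ERK phosphatase, rose by 0.66 (limma adjusted p = 3.2e-05) and SPRED2, an inhibitor of RAS to RAF signalling, by 0.46 (adjusted p = 0.00028). CCND1, the cyclin of G1 and a common AP-1 target, fell by 0.56 (limma adjusted p = 1.46e-05). When the recovered reads were fitted with voom, 7 rose and 1 fell.

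Genes known as AP-1 targets mostly fell in replicate 3, with 13 of 22 lower and 1 higher, against 14.6% and 29.6% of all genes. The median of these targets was -0.25. EREG, an EGFR ligand, was at 46.5 and 53.2 FPKM in replicate 3 of control and MDM4 and at 84.7 to 115 elsewhere (log2 difference -1.05, limma adjusted p = 1.46e-05). HMOX1, heme oxygenase, fell by 0.77 (limma adjusted p = 0.000414) and PLAU, the urokinase protease, by 0.56 (adjusted p = 0.000317). With voom, 17 fell and 1 rose, where 5590 of all 12884 genes were called and 50.5% of those calls were higher. For the members, the same voom fit called 2 higher (FOS and EGR1) and 2 lower (FOSL1 and JUN).

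**Figure D4:**
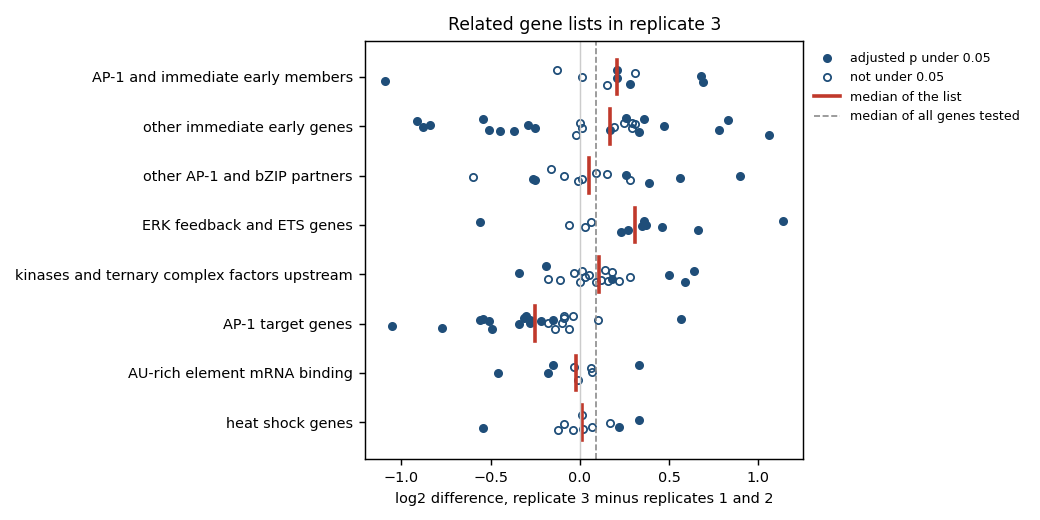
Log2 difference of replicate 3 from replicates 1 and 2 for each tested gene of 8 lists, with filled points for limma adjusted p under 0.05, a red bar for the median of the list and a dashed line for the median of all genes (0.092). ERK feedback and ETS genes sit mostly to the right of the dashed line (median 0.31) and AP-1 target genes mostly to its left (median -0.25).

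Genes that act on AU-rich mRNAs, the element in the tails of FOS and other immediate early transcripts, showed 1 rise and 3 falls among 8. ZFP36 (tristetraprolin), which speeds their decay and is itself an immediate early gene, rose by 0.33 (limma adjusted p = 0.00493), whereas TIAL1, a translational repressor, fell by 0.46 (adjusted p = 0.000175). HNRNPD (AUF1) and KHSRP fell by 0.18 and 0.15 (limma adjusted p = 0.0137 and 0.0298). Among 10 heat shock genes, 2 rose, 1 fell and 7 were not called, and voom called 1 higher and 2 lower. HSPA1A (0.17, limma adjusted p = 0.17) and HSPA1B (0.07, adjusted p = 0.372) were among those not called. HSPA8 fell by 0.54, HSPB1 rose by 0.33 and BAG3 rose by 0.22 (limma adjusted p = 1.58e-05, 0.00518 and 0.0151). The medians of these lists were -0.02 and 0.02. Between MDM4 and control, 0 genes of any of the lists were called. COL1A1, a fibroblast collagen, was also higher in replicate 3 by 0.92 (limma adjusted p = 0.000865), at 3.71 and 3.80 FPKM against 1.60 to 2.33. Of the other fibroblast markers, COL3A1 was at most 0.0543 FPKM, LUM 0.0211 and DCN 0.00668. COL1A1 thus made up nearly all of the summed fibroblast level. The part of COL1A1 in the differences was not tested. In bulk libraries such as these, fewer cells of a kind and less RNA per cell cannot be told apart. Of interferon-stimulated genes, 0 rose and 3 of 23 fell in replicate 3, and 15 fell with voom. OAS2 fell by 1.90 (limma adjusted p = 4.66e-05). The other 2, IFI27 (-0.96, limma adjusted p = 0.0462) and ISG15 (-0.73, adjusted p = 0.0123), are averages over unlike groups. IFI27 was at 54.6, 53.5 and 12.9 FPKM in control and at 10.3, 7.42 and 9.61 in MDM4, and ISG15 was likewise lower in replicate 3 mainly in control.

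FOSL1 had the widest range of the members, so the genes nearest to its profile were looked up, by the root mean square difference of log2(FPKM + 0.1) over the 6 libraries after centring. The 5 nearest were WTIP (0.0531), FAM83H (0.0589), KLHL21 (0.0644), PPRC1 (0.0665) and BEND3 (0.0715). PPRC1, for example, was at 36.5, 35.2 and 17.4 FPKM in control and at 37.0, 36.9 and 17.7 in MDM4.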

How the data were processed

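RNA sequencing of 3 control and 3 MDM4 libraries of SW480 cells was used. The authors deposited FPKM per gene symbol. The labels give oligo(dT) enrichment, while the aligner, annotation, build and strand of counting are not given in the sources used here. The columns carry a letter and a number, read as group and replicate. For each gene above 0 (17189 genes), FPKM values were whole multiples of a step, which gave whole reads for 100% of genes within 0.02 bases of a whole length. A further 2036 symbols were 0 throughout. Values were taken as log2(FPKM + 0.1), and genes averaging 0.5 FPKM or more entered a limma model (version 3.58.1, R 4.3.3; lmFit, then eBayes with trend). P-values were adjusted by Benjamini-Hochberg over all 12884 genes, and called means under 0.05. Replicate 3 was compared with a term for group. Exact tests used scipy 1.17.1. The fit and read recovery were tested on simulated data.

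The members, lists and tests were chosen with earlier results of these data known. Named genes are the members, MDM4, at most 4 called genes per list by size, and the 5 genes nearest to the member of widest range, and others are said to be chosen after their values were seen. Some genes that this rule names are not reported here. The rule for pairing was that deviations from the group means correlate over 0.1 in every same-numbered pair (0.458, 0.451 and 0.783 over genes). Replicates 1 and 2 correlated across numbers as well (0.462 and 0.439). The group means include replicate 3, whose shift both groups share, so the rule cannot show that numbers 1 and 2 pair the libraries. Alternatives covered pseudocounts of 0.5 and 1 FPKM, filters, scalings, voom on the recovered reads, the replicate block, replicates 1 and 2 alone and each library left out. Promoters came from RefSeq (8 members matched) and gene positions from GENCODE. Proteins were not used here.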

Additional observations from a re-analysis of the deposited data

How the results depend on the processing

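In MDM4 against control, 0 members were called under every alternative run. Over all genes the count of 0 became 2 with the replicate block, 69 over replicates 1 and 2 alone, 9 when recovered reads went through voom with the replicate block, and 0 to 21 when each library was left out, with 21 without control replicate 3 and 1 without MDM4 replicate 3. For replicate 3 against replicates 1 and 2, the 6 members called became 4 with median ratio scaling and 4 with voom. With libraries left out they became 3 to 7, fewest without control replicate 3. Requiring an absolute log2 difference over 1 as well left 1 member. The 5685 genes called became 327 with that threshold and 2424 to 6424 with libraries left out, 2424 without MDM4 replicate 3 and 2848 without control replicate 3. In the interaction the 25 genes called became 0 without a filter and 5 with eBayes without trend. The replicate block changed no other call. Directions turned for FOSB in replicate 3 and for differences of at most 0.05 in size. In MDM4 against control, JUNB (-0.01) was 0.01 rescaled to TPM, 0.02 after quantile normalization, 0.02 over replicates 1 and 2 alone and -0.09 to 0.07 with libraries left out. FOSL1 (0.03) ranged from -0.31 to 0.42 with libraries left out. IER3 (-0.05) was 0.02 after quantile normalization and -0.11 to 0.03 with libraries left out. In replicate 3 against the rest, FOSB (0.31) was -0.01 after quantile normalization, and FOSL2 (0.01) was -0.09 with median ratio scaling, -0.07 with voom and -0.03 to 0.05 with libraries left out. The cause was not tested. With 3 libraries a group, FOSB and FOSL2 could not reach an exact p under 0.1, and FOSB rested on 141 to 268 reads.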
